A study of Mus musculus with 6 samples.

Results

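The 33 genes described here copy DNA or carry a cell through mitosis, and they were examined in pancreatic islets of mice that overexpress a microRNA in their beta cells. They were chosen as a named list, by gene symbol, from the 47643 genes of the deposited count tables, and each symbol matched 1 gene. Of these, 12 act at the start of S phase or in DNA synthesis and 21 act in G2 phase and mitosis. Messenger RNA was sequenced from islets of 10-week-old male mice fasted for 12 h. The wild-type group (WT) had 3 libraries, and the transgenic group (TG), labelled as carrying a beta-cell-specific miR-203 transgene, had 3. The labels name neither the promoter behind the transgene nor the strain, and they do not tie libraries to separate animals, so the spread between libraries may be technical.

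One count table (the first) holds libraries 1 and 2 of each genotype, and another (the second) holds library 3 of each. Where 3 values of a genotype are given, they stand in the order of its libraries, 1 to 3. Total counts lay between 20176456 and 27482339 per library. The Mir203 gene had 170, 164 and 150 counts in TG 1, TG 2 and TG 3 and 0 in WT 2 and WT 3, but 39 counts in the library labelled WT 1, which goes in part against its label. Xist, expressed from the inactive X chromosome of females, had 4 to 13 counts in the first table and 25145 and 27240 in the second, so both libraries of the second table go against the label male. Ins2, the main insulin gene and the defining beta-cell marker, took 2.47% to 15.5% of counts, so the tissue label held in all 6 libraries. Summed over 8 beta-cell marker genes, the level was 115911 to 236073 CPM (counts scaled to one common library size, normalized with TMM) in WT and 54161 to 222469 CPM in TG, with TG 2 the highest TG library.

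Proliferating cells switch these genes on in an order. E2F factors open the program late in G1 phase, cyclin E activates CDK2, the MCM helicase is loaded at replication origins and then unwinds the DNA, and PCNA holds the polymerases on it. Later, FOXM1 and the MuvB complexes turn on cyclin B, CDK1 and the genes of the spindle, the kinetochore and the checkpoint that holds back chromosome separation. Adult mouse beta cells divide rarely, and endothelial, stromal and immune cells of the islet can also be a source of such transcripts. In bulk tissue a lower transcript level in each cell and fewer cells that express it cannot be told apart.

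The transgene product is shown first because its seed, bases 2 to 8 of the mature microRNA, is the stretch that pairs with target messages. It is printed from RefSeq (GRCm38.p6, chr12:112130927-112130948) with the seed in capitals.
mmu-miR-203-3p: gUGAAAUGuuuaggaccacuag
The matching letters CATTTCA were searched on the sense strand of the longest annotated 3′ untranslated region (UTR) of each gene. They occurred in 3 of the 33 genes (9.09%), Cdk1, Cenpf and Ube2c, against 16% of 20998 genes with such a region. The median region was 780 bases long in the 33 genes and 954 bases in all genes. The 3 matches are printed from GENCODE M21 transcripts (GRCm38) with the matching letters in capitals.
Cdk1 (chr10:69336314-69336340, minus strand): atattaacgtggCATTTCAtaactgca
Cenpf (chr1:189641558-189641584, minus strand): gttcttggctttCATTTCAgattggta
Ube2c (chr2:164778803-164778822, plus strand): aaccctttgttcCATTTCAa
Ube2c was the 1 of these genes with the longer match CATTTCAA, which 5.13% of all genes held. Tpx2 held only the shorter form ATTTCAA, found in 15.6% of all genes and overlapping the longer one where both occur. The Cdk1 match lies outside the coordinates deposited with the counts of that gene (chr10:69336635-69352938), past its 3′ end. A letter match is a description and not a tested site, and transcript levels of these 4 genes are given among the mitosis genes below.

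Levels per length set the 2 groups of genes apart. The 12 S-phase genes had a median level of 2.28 CPM per kilobase of gene length over the 6 libraries, and the 21 mitosis genes had a median of 0.131. The median over all 16072 genes that passed the low-count filter was 4.60 CPM per kilobase. Pcna, the sliding clamp of the polymerases, was highest at 31.1 CPM per kilobase, followed by Rrm1, a subunit of ribonucleotide reductase, at 7.27. The lowest were Cenpf, a kinetochore protein, and Bub1, a checkpoint kinase, at 0.0271 and 0.0272. Among mitosis genes no library exceeded 105 counts for any gene, so counting error is large there. The filter kept 27 of the 33 genes, and Ccnb1, Aurkb, Bub1, Birc5, Cenpf and Ube2c were not tested.

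**Figure D1:**
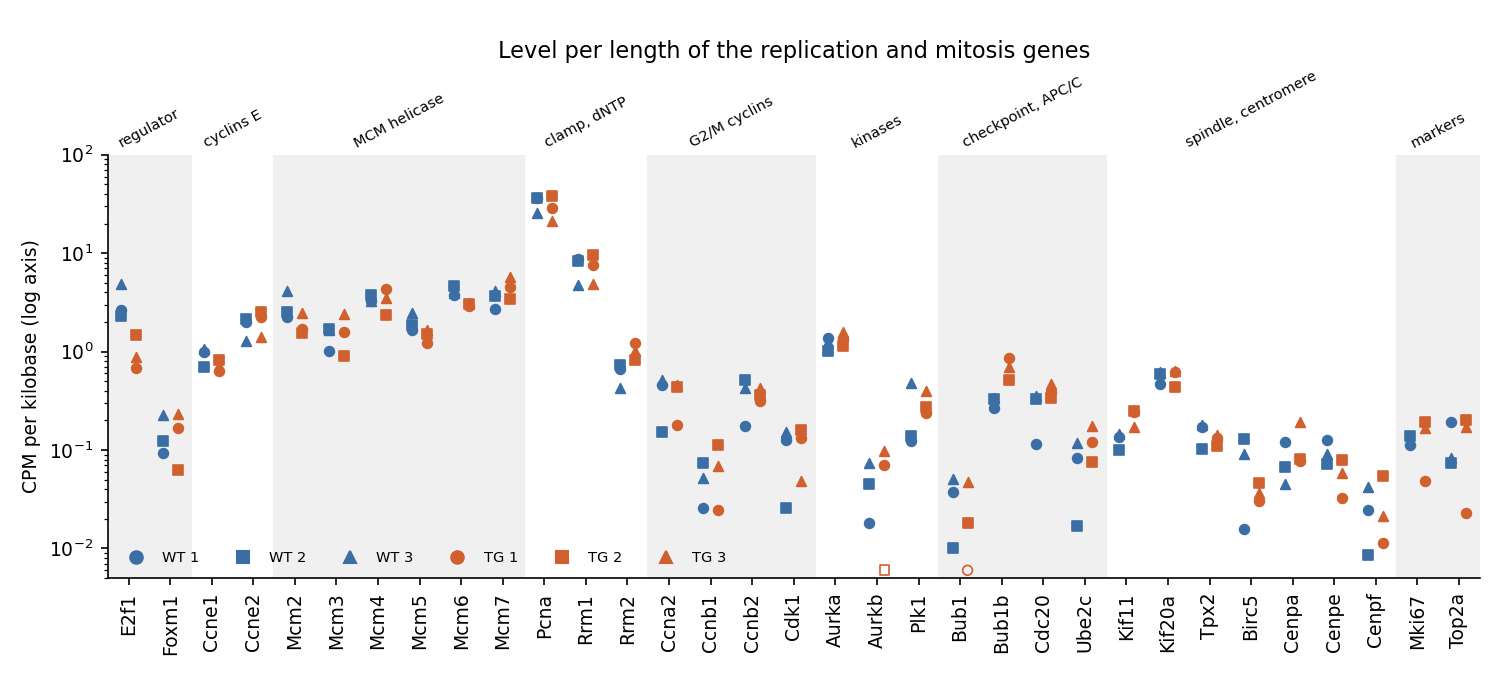
Level of each of the 33 genes in each library, in CPM per kilobase of gene length on a log axis, with WT in blue and TG in orange and genes grouped by role. Open symbols at the bottom edge mark a count of 0 (Aurkb in TG 2 and Bub1 in TG 1), and Pcna stands highest at a mean of 31.1 CPM per kilobase.

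The comparison of the genotypes asked whether the transgene changed any of these transcripts. No gene of the list passed an adjusted p of 0.05 in edgeR (quasi-likelihood test, Benjamini-Hochberg over all 16072 genes, table and genotype as terms), where 0 genes (0%) passed at all. At an unadjusted p under 0.05, Bub1b and Rrm2 were higher in TG (2 of 27, 7.41%) and E2f1, Mcm2 and Mcm6 were lower (3 of 27, 11.1%). Among all genes 9.32% were higher and 4.81% lower by that rule, so these shares lie near the background. Of the 27 genes, 15 had a higher and 12 a lower fitted value in TG. The median log2 fold change, TG over WT, was 0.07, beside -0.01 over all genes. In limma-voom 0 of the 27 genes passed the adjusted threshold, and without adjustment 1 lay higher and 3 lower at p under 0.05. DESeq2 called E2f1 and Mcm2 lower (adjusted p of 0.00641 and 0.0236), where it called 616 genes higher (4.07%) and 136 lower (0.898%). These shares are over the 15137 genes to which DESeq2 gave an adjusted p. Ccnb2, Cdk1, Plk1, Cdc20 and Cenpa had none and could not be called. Without TG 2 the edgeR test called E2f1 lower and Bub1b higher, with 1461 genes higher (8.82%) and 727 lower (4.39%) in all.

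The shares of all genes under the other settings give the background for the counts of these 27 genes. Without the low-count filter edgeR called Bub1b higher and E2f1 lower (adjusted p of 0.0489 and 3.67e-06), and it called 4.37% of all genes higher and 1.25% lower. By the unadjusted rule the share of all genes that lay higher, then lower, in TG was 10.2% and 4.64% in DESeq2, 8.48% and 5.43% in limma-voom, and 9.62% and 4.38% under RLE scaling. It was 8.22% and 3.86% without the filter, 6.85% and 3.27% with bias adjustment as well, 6.68% and 2.25% without the table term, and 4.22% and 1.12% in the first table only. With 1 library left out it was 7.93% and 2.37% (WT 1), 7.9% and 2.04% (WT 2), 4.34% and 1% (WT 3), 5.47% and 3.73% (TG 1), 17% and 13.3% (TG 2), and 4.19% and 1.14% (TG 3). In the fit without TG 2, 3 of the 27 genes lay higher and 5 lower by that rule.

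**Figure D2:**
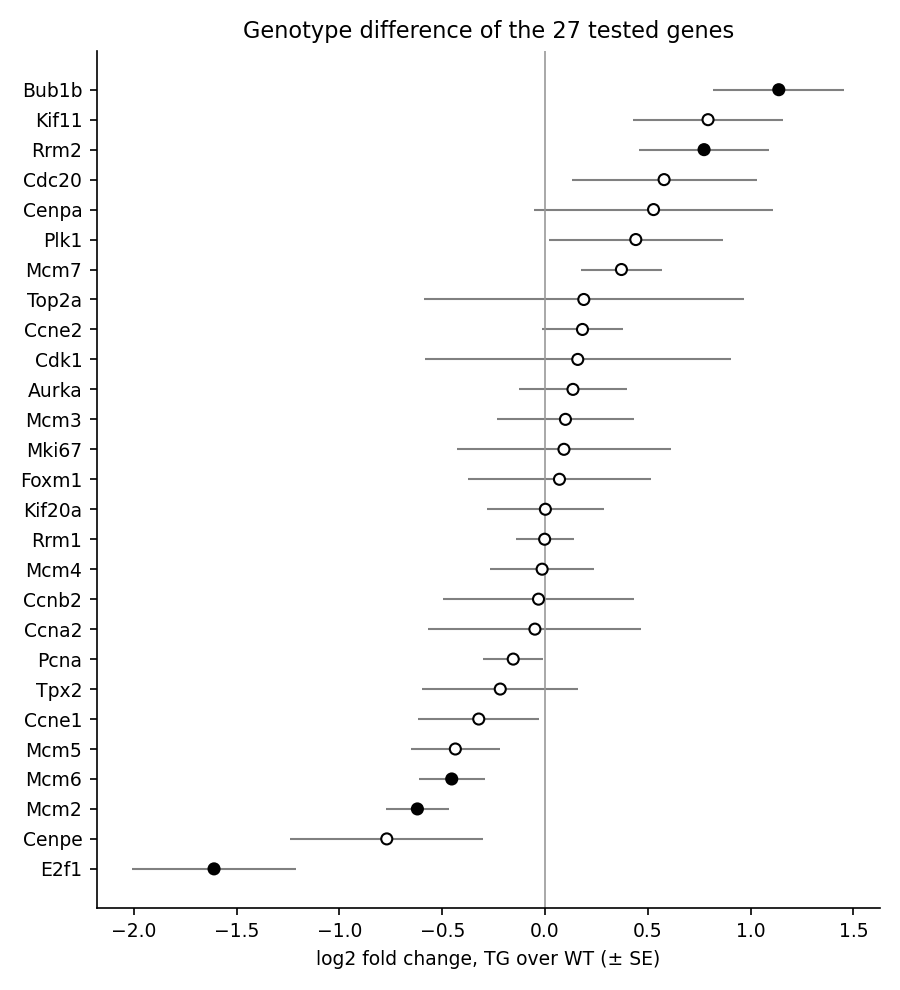
Log2 fold change of TG over WT with its standard error for the 27 tested genes, sorted by size. Filled points have an unadjusted edgeR p under 0.05 and none passed adjustment; E2f1 lies lowest at -1.61 and Bub1b highest at 1.14.

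E2f1 showed the largest difference of the 27 genes in either direction. It encodes the transcription factor that starts the S-phase program, and the gene (ENSMUSG00000027490) lies on chromosome 2 at 154559407 to 154569892 of GRCm38. E2f1 was at 8.37, 7.22 and 15.2 CPM in the libraries labelled WT and at 2.16, 4.64 and 2.78 CPM in those labelled TG. Every TG library lay below every WT library, and within the TG group TG 2 was highest. The mean of E2f1 was 10.3 ± 4.31 CPM over WT and 3.19 ± 1.29 CPM over TG libraries (SD, n = 3), so TG held 31.1% of the WT level. The log2 fold change was -1.61 (SE 0.40), with an edgeR Benjamini-Hochberg adjusted p of 0.216 over all genes. With 1 library left out it ran from -1.20 (without TG 3, and likewise without WT 3) to -2.12 (without TG 2), and without the library labelled WT 1, which carried Mir203 reads, it was -1.67. The first table alone gave -1.20. Only without TG 2, among these leave-outs, did E2f1 pass the threshold, with an adjusted p of 0.00397 in edgeR. Over all alternatives the adjusted p of E2f1 ran from 3.67e-06 in edgeR without the low-count filter to 0.924. On those unfiltered genes, edgeR with bias adjustment gave 0.177.

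Summed markers of cell types are given beside E2f1, and their part in its difference was not tested. The summed beta-cell markers were lowest in TG 3 and TG 1, at 54161 and 56027 CPM, and TG 2 was at 222469 CPM. WT 3, the WT library of the same table as TG 3, was at 115911 CPM. Against the WT level of the same table, the median beta-cell marker was at -2.28 in TG 1, -0.61 in TG 2 and -1.26 in TG 3 (log2). The 8 stellate and fibroblast markers summed to 24.5 to 74.8 CPM in WT and 32.8 to 177 CPM in TG. The 8 duct markers summed to 838 to 1259 CPM in WT and 1690 to 2253 CPM in TG, and the 6 Schwann-cell markers to 13.1 to 21.5 and 17.9 to 34.4 CPM. The duct sums did not overlap between the genotypes, with all TG libraries above all WT libraries. Endothelial markers summed to 242 to 376 CPM in WT and 253 to 509 CPM in TG, macrophage markers to 84.0 to 194 and 111 to 206 CPM, and acinar markers to 125 to 6406 and 271 to 4386 CPM. The 8 lymphocyte markers were scarce and did not overlap either, at 5.06 to 9.06 CPM in WT and 2.36 to 4.86 CPM in TG. Red blood cell markers were at 1.05 to 5.06 and 2.26 to 5.74 CPM. Of the tested genes of each list, 7 of 8 stellate, 7 of 7 duct, 4 of 5 Schwann, 7 of 8 endothelial, 5 of 8 macrophage, 6 of 9 acinar, 3 of 3 red blood and 1 of 3 lymphocyte markers had a higher fitted value in TG, and 7 of 8 beta-cell markers a lower one. No marker of these 9 lists was at 0 in all libraries. The lists held no genes of the other islet hormones glucagon (Gcg) and somatostatin (Sst). Gcg had 321344 to 587043 counts in WT and 500497 to 1304684 in TG. Sst had 32180 to 83781 counts in WT and 54359 to 118837 in TG. Unlike the sums above, these counts are not scaled to library size. The lowest values were in WT 1 and the highest in TG 1, with TMM-adjusted library sizes of 18526039 and 28755315 counts.

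Foxm1, the transcription factor of the late program, did not share the E2f1 pattern. Foxm1 was at 0.540, 0.704 and 1.31 CPM in the libraries labelled WT and at 0.974, 0.357 and 1.33 CPM in those labelled TG. The groups overlapped, and the log2 fold change was 0.07 (SE 0.44). The cyclin E genes, whose products activate CDK2, differed from each other in the direction of their fitted values. Ccne1 had a mean of 1.93 ± 0.240 CPM over the TG libraries and of 2.43 ± 0.511 CPM over the WT libraries, with a log2 fold change of -0.32 (SE 0.30), which was -0.49 without WT 2 and -0.19 without WT 1. Ccne2 had a mean of 7.20 ± 2.01 CPM over the TG libraries and of 6.31 ± 1.59 CPM over the WT libraries (SD, n = 3), with a log2 fold change of 0.18 (SE 0.20). Part of Ccne2 overlaps exons of Ints8 on the other strand, and whether the counting used strand was not given in the sources used here.

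The 6 subunits of the MCM helicase, a ring loaded around DNA at replication origins, did not move together. Compared within tables, every TG library had less Mcm2, Mcm5 and Mcm6 than any WT library, Mcm7 had a higher fitted value, and Mcm3 and Mcm4 were close to 0. Mcm2 was at 15.7, 17.6 and 28.6 CPM in the libraries labelled WT and at 11.9, 10.6 and 17.1 CPM in those labelled TG. The Mcm2 ranges overlapped only through TG 3, and WT 3, the other library of the second table, was the highest of all. Its log2 fold change was -0.62 (SE 0.15), with an edgeR adjusted p of 0.216 (Benjamini-Hochberg).

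Mcm6 was at 17.5, 21.7 and 18.5 CPM in the libraries labelled WT and at 13.6, 14.1 and 14.5 CPM in those labelled TG. The TG libraries spread by 0.428 CPM (SD, n = 3), and all were below the WT libraries. Its log2 fold change was -0.45 (SE 0.16), with an edgeR adjusted p of 0.287. Mcm5 was at 5.67, 6.34 and 8.36 CPM in the libraries labelled WT and at 4.21, 5.12 and 5.60 CPM in those labelled TG. Its groups did not overlap either, though TG 3 and WT 1 were close. The log2 fold change of Mcm5 was -0.44 (SE 0.22), with an edgeR adjusted p of 0.411.

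Mcm7 had the opposite sign, at a mean of 15.5 ± 3.25 CPM over WT and 20.2 ± 5.16 CPM over TG libraries (SD, n = 3) and a log2 fold change of 0.37 (SE 0.20). TG 2, at 15.1 CPM, lay between WT 1 and WT 2, so the groups overlapped. Exons of Mcm7 overlap those of Ap4m1 and Cops6 on the other strand, and 321 of its 2962 exon bases are shared with Ap4m1, where reads may not be separated. The log2 fold change was 0.10 (SE 0.33) for Mcm3 and -0.01 (SE 0.25) for Mcm4, and in both TG 2 was the lowest of the 6 libraries, at 3.41 and 8.53 CPM. Summed over Mcm2 to Mcm7, the level was 66.4, 81.8 and 91.5 CPM in the libraries labelled WT and 71.3, 56.8 and 84.2 CPM in those labelled TG, so the sums overlapped.

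Pcna and Rrm1 had the highest levels per length of the list. Pcna was at 87.1, 86.5 and 61.1 CPM in the libraries labelled WT and at 69.7, 92.0 and 51.0 CPM in those labelled TG. Both libraries of the second table were low, and the log2 fold change of TG over WT was -0.15 (SE 0.15), with a range from -0.061 without TG 1 to -0.30 without TG 2. Rrm1, the large subunit of ribonucleotide reductase, which makes deoxynucleotides, was at 34.5, 33.6 and 19.2 CPM in WT and 30.0, 37.9 and 19.2 CPM in TG, in the same order of libraries. Its log2 fold change was 0.00 (SE 0.14), and the order of the 6 libraries followed the table more than the genotype.

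Rrm2, the small subunit of the same enzyme, which is made mainly in S phase, was at 1.84, 2.02 and 1.18 CPM in the libraries labelled WT and at 3.37, 2.26 and 2.82 CPM in those labelled TG. Every TG library lay above every WT library, by the least in TG 2. The Rrm2 counts behind these values were 27 to 97 per library. The log2 fold change was 0.77 (SE 0.31), with an edgeR adjusted p of 0.341 (Benjamini-Hochberg).

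Bub1b, which encodes the checkpoint protein BUBR1, had the highest fold change of the list. The gene (ENSMUSG00000040084) lies on chromosome 2 at 118598211 to 118641591 of GRCm38. It had 21, 32 and 33 counts in the libraries labelled WT and 105, 55 and 71 counts in those labelled TG. These were 1.13, 1.41 and 1.44 CPM in WT and 3.65, 2.18 and 2.95 CPM in TG. All TG libraries lay above all WT libraries, and TG 2 was again the TG library closest to WT. The log2 fold change was 1.14 (SE 0.32), with an edgeR adjusted p of 0.236 (Benjamini-Hochberg). Without the library labelled WT 1 it was 1.05, and without TG 2 it was 1.31, with an adjusted p of 0.0365 in the same test.

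Its partner kinase Bub1 had 3, 1 and 5 counts in the libraries labelled WT and 0, 2 and 5 counts in those labelled TG, too few for a test. The 0 in TG 1 allows up to 0.104 CPM when 3 counts are taken as the limit. Cdc20 and Ube2c, which drive the ubiquitin ligase that the checkpoint holds back, were also scarce. Cdc20 had a mean of 0.746 ± 0.119 CPM over the TG libraries and of 0.496 ± 0.244 CPM over the WT libraries (SD, n = 3), with a log2 fold change of 0.58 (SE 0.45). Leaving out WT 1 gave 0.27, and leaving out WT 2 gave 0.98. Ube2c, which holds the 8-letter seed match printed above, had 9, 5 and 11 counts in TG and 4, 1 and 7 in WT, and it was not tested.

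Kif11, the motor that separates the spindle poles, was at 0.648, 0.484 and 0.700 CPM in the libraries labelled WT and at 1.18, 1.19 and 0.830 CPM in those labelled TG. The groups did not overlap, and here TG 3 was closest to WT. Its counts were 11 to 34 per library, and the log2 fold change of 0.79 (SE 0.36) had an edgeR adjusted p of 0.379 (Benjamini-Hochberg). Other spindle genes showed no such separation. Kif20a, a motor of cytokinesis, and Tpx2, which activates Aurora A on the spindle, showed log2 differences of 0.00 (SE 0.29) and -0.22 (SE 0.38). Tpx2 had 15, 11 and 19 counts in WT and 18, 13 and 16 counts in TG, and its log2 difference ran from -0.42 without WT 2 to -0.0062 without WT 1. Of the 3999 exon bases of Kif20a, 1271 are shared with Cdc23 on the other strand, so its level is uncertain. Ube2c shares 592 of 2600 exon bases with Tnnc2, and Ccna2 shares 378 of 3627 with Exosc9, both on the other strand. Foxm1 shares 288 of 4652 with Tex52 on the same strand. Plk1 and Cdc20 have smaller overlaps.

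**Figure D3:**
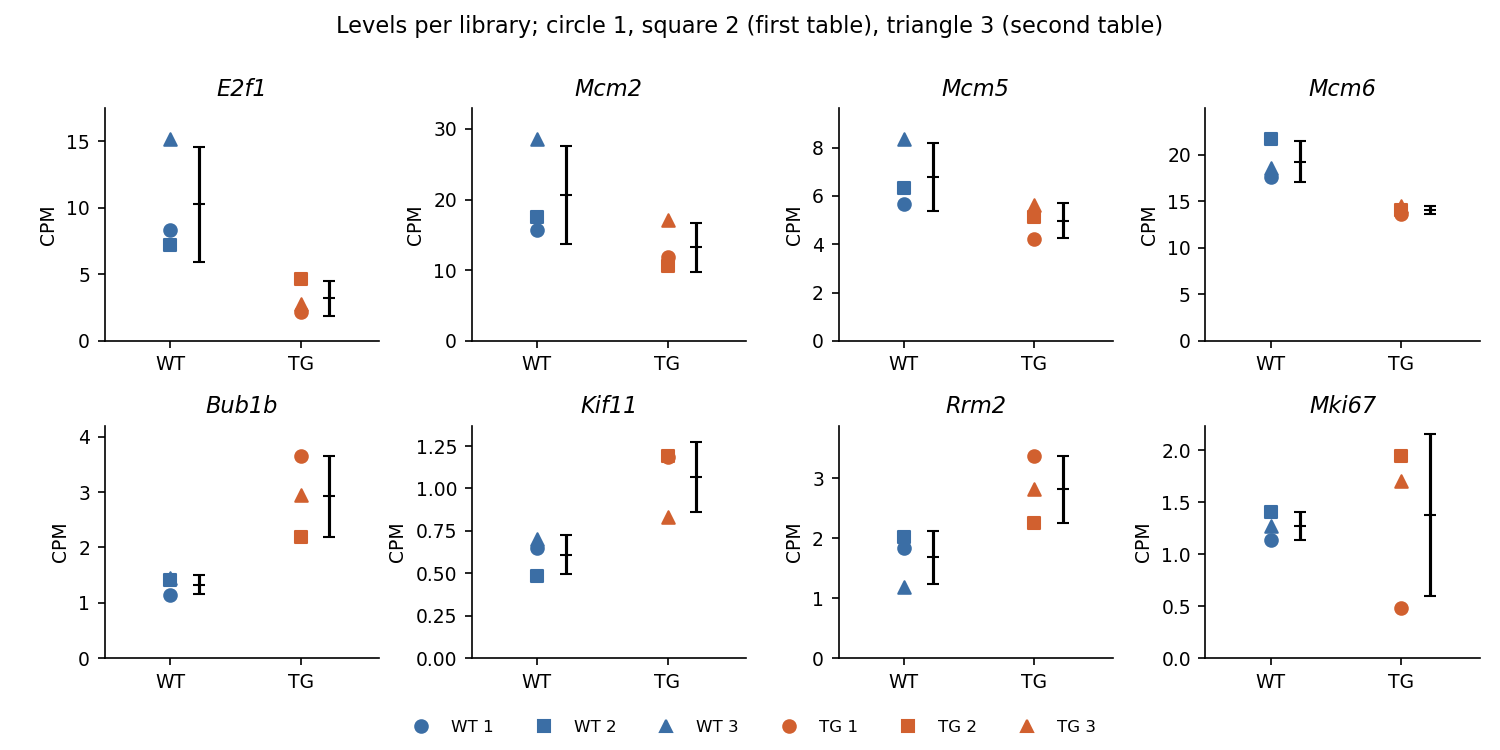
CPM in each library for 8 genes, with WT in blue and TG in orange and the mean ± SD of 3 libraries beside the points. E2f1, Mcm5 and Mcm6 are lower and Bub1b, Kif11 and Rrm2 higher in every TG library than in every WT library; Mcm2 and Mki67 overlap.

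In all, 3 of the 27 tested genes (Bub1b, Kif11 and Rrm2) lay higher in every TG than in every WT library, and 3 (E2f1, Mcm5 and Mcm6) lay lower, which is 11.1% in each direction. Among all genes 6.96% lay higher and 6.42% lower by that rule. Compared only with the WT libraries of the same table, every TG library was higher in 5 of the 27 genes and lower in 4 (18.5% and 14.8%), against 13% and 13.4% of all genes. The genes added by the looser rule were Ccne2 and Cdc20 among the higher and Mcm2 among the lower.

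The general proliferation markers did not separate the genotypes. Mki67, the gene of the Ki-67 antigen, had 21, 32 and 29 counts in the libraries labelled WT and 14, 49 and 41 counts in those labelled TG. In CPM, TG 1 was the lowest library at 0.487 and TG 2 the highest at 1.94, with WT between 1.13 and 1.41. The log2 fold change was 0.09 (SE 0.52). Top2a, the topoisomerase that untangles sister chromatids, had the same extremes, with 6 counts in TG 1 and 46 in TG 2, and WT libraries at 15 to 32 counts. Its log2 fold change of 0.19 (SE 0.78) was the least certain of the list.

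The mitotic cyclins and kinases were likewise within the spread. Ccna2, cyclin A2, was at 1.54 ± 0.803 CPM in WT and 1.46 ± 0.635 CPM in TG, and Ccnb2, a cyclin B, at 0.573 ± 0.271 and 0.569 ± 0.0894 CPM (SD, n = 3). Cdk1, the kinase they activate, had 2 to 12 counts in WT and 4 to 14 counts in TG, with a log2 fold change of 0.16 (SE 0.74). Ccnb1, the other cyclin B, had at most 12 counts in any library. Aurka, Aurora A kinase of the spindle poles, was the mitosis gene with the highest level per length, at 1.28 CPM per kilobase, and its log2 fold change was 0.14 (SE 0.26). Aurka ran from 0.04 without WT 3 to 0.31 without WT 1. Plk1, a kinase of mitotic entry, had a log2 fold change of 0.44 (SE 0.42), which was 0.27 without TG 2 and 0.93 without TG 3. Aurkb, Aurora B kinase of the centromere, had 0 to 7 counts per library.

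Centromere genes gave no clear direction. Cenpa, the centromeric histone, had a log2 fold change of 0.53 (SE 0.58), with 27 counts in TG 3 and at most 13 elsewhere. Cenpe, a kinetochore motor, had 20, 14 and 18 counts in the libraries labelled WT and 8, 17 and 12 in those labelled TG, and its log2 fold change was -0.77 (SE 0.47). That of Cenpe ran from -0.45 without TG 1 to -1.15 without TG 2. Cenpf, with a seed match, had 7, 3 and 15 counts in WT and 5, 21 and 8 in TG. Birc5, survivin of the chromosomal passenger complex, had 1, 10 and 7 counts in WT and 3, 4 and 3 in TG. Summed over the 6 untested genes, counts were 18, 25 and 44 in the libraries labelled WT and 26, 44 and 41 in those labelled TG. These sums overlapped between the genotypes.

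Promoters are shown for 4 of the 6 genes whose groups did not overlap. Those of the other two, E2f1 and Rrm2, overlap annotated exons and are not printed. The 250 bases before the start site were read from RefSeq (GRCm38.p6) for 26 of the 33 genes. E2F motifs were searched as TTTCCCGC, TTTGGCGC, TTTGCCGC and TTTCGCGC, the CHR element of late genes as TTTGAA, and the CCAAT box as CCAAT, on both strands. Matches, including the complement ATTGG of the CCAAT box, are in capitals below, and where 2 E2F motifs on opposite strands overlap they form 1 longer run.
Mcm5 (chr8:75109259-75109508, plus strand): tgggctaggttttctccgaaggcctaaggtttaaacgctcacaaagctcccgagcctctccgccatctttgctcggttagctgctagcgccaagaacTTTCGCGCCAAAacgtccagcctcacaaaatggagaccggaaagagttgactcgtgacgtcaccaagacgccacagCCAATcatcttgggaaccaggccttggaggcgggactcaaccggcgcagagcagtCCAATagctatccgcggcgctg
Mcm6 (chr1:128359706-128359955, minus strand): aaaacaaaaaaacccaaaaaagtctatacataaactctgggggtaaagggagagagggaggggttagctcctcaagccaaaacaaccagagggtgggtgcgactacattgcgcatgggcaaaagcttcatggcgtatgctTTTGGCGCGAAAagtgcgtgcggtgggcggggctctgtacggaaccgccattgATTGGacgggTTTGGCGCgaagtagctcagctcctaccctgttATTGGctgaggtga
Bub1b (chr2:118597961-118598210, plus strand): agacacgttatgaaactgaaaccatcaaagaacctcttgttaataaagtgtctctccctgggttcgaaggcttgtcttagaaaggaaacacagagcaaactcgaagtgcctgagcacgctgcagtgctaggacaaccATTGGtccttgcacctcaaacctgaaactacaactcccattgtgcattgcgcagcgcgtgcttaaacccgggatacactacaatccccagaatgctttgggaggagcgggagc
Kif11 (chr19:37376132-37376381, plus strand): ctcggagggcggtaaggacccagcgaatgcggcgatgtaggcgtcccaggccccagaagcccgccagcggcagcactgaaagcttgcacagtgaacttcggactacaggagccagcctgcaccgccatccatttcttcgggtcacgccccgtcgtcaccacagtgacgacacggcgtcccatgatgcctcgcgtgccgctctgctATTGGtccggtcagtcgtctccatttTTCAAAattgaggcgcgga
An E2F motif was found in Cdk1, Mcm5, Mcm6 and Mcm7 (15.4% of the 26), against 2.16% of 27025 genes with a promoter entry. A CHR match was found in 8 of the 26 genes (30.8%), among them Mki67, Top2a, Ccnb2, Cdk1 and Kif11, against 18.3% of all genes. A CCAAT box was found in 23 of the 26 (88.5%), against 37.5%. The E2F motif did not sort the genes by direction. Mcm5 and Mcm6, both lower in every TG library, hold it, but so does Mcm7, whose fitted value was higher. In Mcm7 the motif lies before 1 annotated start site, and the window of the other start site holds none. E2f1 and Mcm2, with lower values, and Bub1b, Kif11 and Rrm2, with higher ones, hold no E2F motif of these letters in this window.

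A few of these genes differed between the tables of deposit. This term of the same edgeR fit was tested after the values had been seen. Rrm1 was lower in the second table than in the first, at 19.2 against 34.0 CPM, with a log2 fold change of -0.82 (SE 0.16) and a Benjamini-Hochberg adjusted p of 0.0312. Mcm2 was higher there, at 22.8 against 14.0 CPM, with a log2 fold change of 0.69 (SE 0.16) and an adjusted p of 0.0446 in edgeR. These were the 2 genes of 27 past the threshold, beside 5.68% of all genes higher and 3.85% lower in the second table. Neither passed without WT 1, without WT 2, without WT 3 or without TG 3, with adjusted p of 0.111 to 0.254 for Rrm1 and 0.120 to 0.315 for Mcm2 in edgeR. Pcna joined them without TG 1 (0.0426) or without TG 2 (0.0490). The second table holds both libraries with high Xist, so sex, batch and table cannot be told apart. With 1 library of each genotype there, a test of whether the TG difference depended on the table takes its spread from the first table. Such a test can miss a dependence, so the lack of passing genes does not show equal differences in both tables. The interaction of table and genotype, which asks whether the TG difference depended on the table, passed for 0 of the 27 genes in edgeR (adjusted) and for 0 at an unadjusted p under 0.05, beside 0% and 2.28% of all genes.

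**Figure D4:**
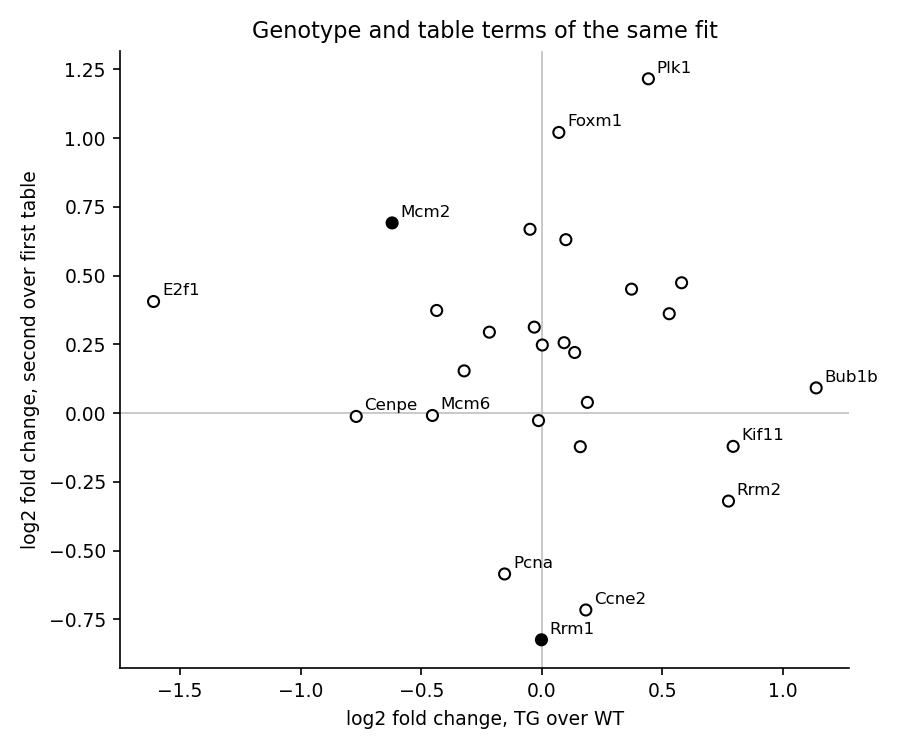
Log2 fold change of TG over WT (horizontal) and of the second over the first table (vertical) for the 27 tested genes, from the same fit. Filled points, Rrm1 and Mcm2, passed the adjusted threshold for the table; E2f1 and Bub1b lie far from 0 on the genotype axis and nearer 0 on the table axis.

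Other genes of the cell cycle were taken from 9 lists of 148 genes in all, of which 128 were tested. No gene of these lists passed in edgeR (0 of 128) or DESeq2 (0), and without adjustment edgeR had 2 higher and 6 lower in TG at p under 0.05, beside 9.32% and 4.81% of all genes. Without TG 2, edgeR called 2 of the 128 higher and 6 lower, beside 8.82% and 4.39% of all genes, so the higher calls lay below the background and the lower ones near it. The fitted values were lower in TG for 82 genes and higher for 46, and their median log2 fold change was -0.11, beside -0.01 over all genes. The counts by direction in these lists, here and below, were not tested.

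Genes of origin licensing and of the replication fork mostly had lower fitted values. Of 17 tested licensing genes 14 were lower, with a median of -0.26. Against the WT level of the same table, the median licensing gene was at -0.23 in TG 1, 0.11 in TG 2 and -0.52 in TG 3 (log2), so TG 2 went the other way. The summed licensing genes overlapped, at 194 to 257 CPM in WT and 144 to 266 CPM in TG. TG 1 and TG 3 are also the libraries with few beta-cell marker reads, whose part in this was not tested. In edgeR Orc6 and Orc2, subunits of the origin recognition complex, differed by -0.49 (SE 0.18) and -0.46 (SE 0.20) on the log2 scale. Against the WT level of the same table, the median fork gene was at -0.08 in TG 1, -0.01 in TG 2 and -0.37 in TG 3 (log2). The difference thus lay mostly in TG 3. Of 20 fork genes 16 were lower, with a median of -0.21. Among them Rfc5, a subunit of the clamp loader, was at a mean of 13.3 ± 0.891 CPM over WT and 9.27 ± 0.726 CPM over TG libraries (SD, n = 3), with a log2 fold change of -0.52 (SE 0.17). Rfc1, its large subunit, had -0.35 (SE 0.14). Of the 8 nucleotide supply genes 5 were higher, with a median of 0.04, and Dck, deoxycytidine kinase, differed by 0.28 (SE 0.20) on the log2 scale.

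The lists of later phases were mixed, except that 8 of 9 condensin and chromatid separation genes were lower (median -0.19), among them Ncaph2 at -0.30 (SE 0.13) and Pttg1, securin, at -0.34 (SE 0.18). Wee1, which holds CDK1 inactive, was at a mean of 7.67 ± 1.36 CPM over WT and 13.9 ± 6.02 CPM over TG libraries (SD, n = 3). TG 1 and TG 3 were at 16.1 and 18.6 CPM, but TG 2, at 7.14 CPM, lay within the WT range of 6.10 to 8.58 CPM. Bora, a cofactor of Aurora A, had a log2 fold change of -0.54 (SE 0.26). Wee1 and Bora belong to 10 G2/M genes, of which 7 were higher. Of 19 kinetochore and checkpoint genes 11 were lower (median -0.34), with Mad1l1 at -0.52 (SE 0.18) and Cenpw at -0.86 (SE 0.42). Mad1l1 was lower in every TG than in every WT library. Cenpw overlapped, with TG 2 at 2.98 CPM, within the WT range of 2.41 to 3.24 CPM. Of 16 spindle and cytokinesis genes 8 were lower, and Kif23 and Anln had 0.56 (SE 0.34) and 0.52 (SE 0.39).

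The E2F factors with the pocket protein and MuvB genes, and the D cyclins with their kinases and inhibitors, were also examined. Of 16 E2F, pocket protein and MuvB genes 8 were lower, with Rbl1, the pocket protein p107, at -0.47 (SE 0.21) and E2f4, a repressor E2F, at -0.29 (SE 0.13). Of 13 D cyclins, their kinases and inhibitors 11 were lower. Ccnd2, the main D cyclin of beta cells, was at a mean of 430 ± 32.1 CPM over WT and 294 ± 52.1 CPM over TG libraries (SD, n = 3), with a log2 fold change of -0.55 (SE 0.18) and an edgeR adjusted p of 0.260 (Benjamini-Hochberg). Cdkn1c, which encodes the CDK inhibitor p57, was lower too, at 0.796 ± 0.262 CPM over WT and 0.343 ± 0.0475 CPM over TG libraries (SD, n = 3), with a log2 fold change of -1.17 (SE 0.43). Without TG 2, Orc6, Orc2, Cenpw and Ccnd2 passed among the lower and Wee1 among the higher genes in edgeR.

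**Figure D5:**
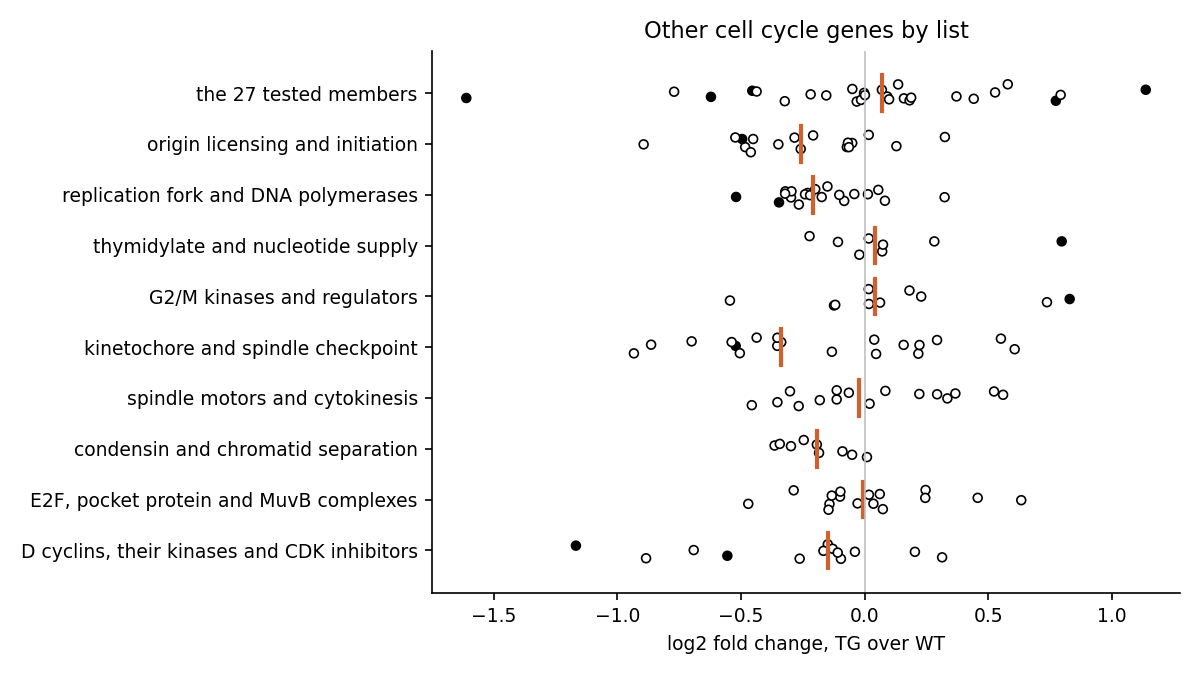
Log2 fold change of TG over WT for the 27 tested genes of the main list and for the tested genes of 9 other cell cycle lists, 1 point per gene, with the median of each list as an orange bar. Filled points have an unadjusted edgeR p under 0.05 and none passed adjustment; the licensing and fork lists have medians of -0.26 and -0.21.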

How the data were processed

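The authors deposited raw read counts per gene for 6 islet libraries in 2 tables, with gene names, coordinates and gene lengths in annotated FPKM tables, per the file headers. The submitters' processing notes name CASAVA 1.8, HISAT2 and GRCm38 (mm10); which counter and annotation were used, and with what strandedness, was not given in the sources used here. The deposited FPKM values, scaled separately for each table, were not used for results. Counts were joined on gene ID and fitted in edgeR 4.0.16 (R 4.3.3, filterByExpr, TMM, quasi-likelihood) with table and genotype as terms. Alternatives were DESeq2 1.42.0, limma-voom (limma 3.58.1), RLE scaling, no low-count filter, no table term, the first table only and each library left out. The code was tested on simulated counts. SE is the absolute log2 fold change over the square root of F. Totals of 20176456 to 27482339 counts leave counting error at low genes; floors cover counting error only. No 2 libraries matched within sampling noise. Over 13065 genes the lowest chi-square per degree of freedom, 31.6, was between WT 1 and TG 2, libraries of different genotype. It was 42.4 between WT 1 and WT 2. Among TG libraries it was 335 (TG 1 and TG 2), 136 (TG 1 and TG 3) and 407 (TG 2 and TG 3). The reason for this order was not tested. The members, lists and tests were chosen with earlier results of these data known; all members and the 2 genes of smallest p per list are named, except 1 that is not reported here.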

Additional observations from a re-analysis of the deposited data

How the results depend on the processing

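No paired analysis was possible because the labels give the genotypes no shared replicate numbers. The table, which holds both genotypes, was a term instead. Cause was not tested for any change below.

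All genes called higher and lower were 0 and 0, but 616 and 136 in DESeq2, 1300 and 372 without the low-count filter, and 0 to 1461 and 0 to 727 with 1 library left out, where only TG 2 gave calls. The bias-adjusted test without that filter, added after seeing the data, called 0 and 0. Of the 27 replication and mitosis genes, DESeq2 called 2 lower (E2f1 and Mcm2), the unfiltered fit 1 higher (Bub1b) and 1 lower (E2f1), and leaving out 1 library 0 to 1 in each direction. DESeq2 gave no adjusted p for Ccnb2, Cdk1, Plk1, Cdc20 and Cenpa. At an unadjusted p under 0.05 the genes higher numbered 1 in DESeq2, limma-voom, without the table term and in the first table only, and 1 to 3 with 1 library left out; those lower numbered 1 without the table term and 2 to 5 with 1 library left out. Other cell cycle lists had 1 higher and 1 lower without the filter, and 0 to 2 and 0 to 6 with 1 library left out. The genes called between the tables were 0 to 1 higher and 0 to 2 lower in the second with 1 library left out.

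The median log2 fold change was -0.00997 in limma-voom, -0.0545 in the first table only and -0.0840 (without TG 2) to 0.0780 (without TG 1) with 1 library left out. E2f1, Mcm2, Mcm5, Mcm6, Bub1b, Kif11 and Rrm2 kept their direction in every alternative. The sign turned in limma-voom for Mki67 (-0.11), Top2a (-0.12), Ccnb2 (0.0630), Kif20a (-0.0072) and Foxm1 (-0.0247), and in the first table only for Mki67 (-0.0761), Top2a (-0.23), Ccna2 (0.0161), Kif20a (-0.0097), Mcm3 (-0.12) and Cenpa (-0.22). It turned for Kif20a without the filter (-0.012, in both forms of the test) and for Rrm1 in DESeq2 and under RLE scaling (0.0015). Leaving out 1 library also turned it for Mki67 (-0.51 to 0.53), Top2a (-0.63 to 0.82), Ccna2 (-0.48 to 0.46), Ccnb2 (-0.33 to 0.47), Cdk1 (-0.51 to 0.99), Kif20a (-0.14 to 0.12), Rrm1 (-0.11 to 0.0907), Mcm3 (-0.12 to 0.39), Mcm4 (-0.27 to 0.21), Cenpa (-0.23 to 1.03) and Foxm1 (-0.37 to 0.35).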
